A study of Mus musculus with 16 samples.

Results

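Matrix metalloproteases (Mmp), the ADAMTS and ADAMTS-like families (Adamts, Adamtsl) and the tissue inhibitors of metalloproteases (Timp) were followed in RNA-seq libraries of adipose progenitors, the precursor cells that reside in fat and can become adipocytes. Members were all rows of the deposited count table whose gene symbol was Mmp with a number (and an a or b where one follows), Adamts with a number, Adamtsl with a number, or one of the Timp genes. This rule found 51 of 38720 rows: 23 Mmp, 19 Adamts, 5 Adamtsl and 4 Timp genes. The 16 libraries fell into 4 groups of 4, all from mice 4 weeks old whose strain label reads C57BL/6J. KO VAT and KO SAT were progenitors of visceral and subcutaneous fat from Nr4a1-/- mice, whose genotype label reads B6;129S2-Nr4a1tm1Jmi/J, a targeted allele of the orphan nuclear receptor gene Nr4a1 present in every cell. WT VAT and WT SAT were the same preparations from Nr4a1+/+ wild type mice. The labels call the libraries of a group biological replicates without tying them to separate animals, so p-values measure the spread between these samples only. Neither sex nor litter nor day of preparation is stated by the labels, and an effect of genotype cannot be told apart from one of strain background, litter or day.

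Mmp enzymes are zinc proteases that cut collagens, gelatin and many other matrix and cell-surface proteins, and most are made as inactive precursors. Adamts enzymes add thrombospondin repeats that bind matrix, and cut procollagens, proteoglycans such as versican and aggrecan, or von Willebrand factor, while Adamtsl proteins keep the matrix-binding part without the protease. The 4 Timp proteins block the active site of Mmp enzymes, and Timp3 also blocks several Adamts and Adam enzymes. In fat, the membrane protease Mmp14 is known from mouse knockouts to be needed for adipocytes to expand within fibrillar collagen.

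Total counts were 34655519 to 55551845 per library. Nr4a1 was at 297 to 327 CPM (counts scaled to a common total after TMM scaling) in KO VAT, 1432 to 1649 CPM in WT VAT, 195 to 209 CPM in KO SAT and 997 to 1212 CPM in WT SAT, so every library was in the direction of its label. WT SAT replicate 3 had the lowest total and the lowest mean correlation with its own group, 0.976 in log2 CPM over the tested genes. KO VAT replicate 4 had the next lowest, 0.981, close to WT VAT replicate 4 at 0.982, and the range reached 0.990. Counts of calls are given below with and without WT SAT replicate 3 and KO VAT replicate 4, the 2 least correlated libraries. The progenitor marker Pdgfra was at 470.3 to 581.0 CPM in KO VAT and 583.7 to 767.8 CPM in WT VAT, without overlap. In SAT it was at 752 to 795 CPM in KO and 595 to 961 CPM in WT. The column names carry the tag MACS, without the markers of any sort. The libraries held RNA of other cell types, and in bulk samples fewer cells of a type and less RNA per cell cannot be told apart. Summed mesothelial markers (10 genes) were at 834 to 1593 CPM in KO VAT, 839 to 1618 CPM in WT VAT, 6.70 to 10.03 CPM in KO SAT and 7.35 to 12.2 CPM in WT SAT, and the mesothelial gene Muc16 had no count in any SAT library. The library kit named in the labels does not mark strand, so reads of a gene and of an overlapping gene on the other strand cannot be separated.

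Of the 51 members, 40 passed the filter on low counts (filterByExpr, near 0.227 CPM in at least 4 libraries) and 11 did not. The 11 were Mmp1a, Mmp1b, Mmp8, Mmp10, Mmp12, Mmp13, Mmp20, Mmp21, Mmp25, Adamts13 and Adamts18. Mmp1b and Mmp20, the enamel protease, had no count in any library. The highest count of any library was 3 for Mmp8 (the neutrophil collagenase), 3 for Mmp13 (a collagenase), 4 for Mmp1a, 5 for Adamts13 (which cuts von Willebrand factor), 6 for Mmp21, 7 for Mmp10, 12 for Mmp25 and 14 for Adamts18. Mmp12, the macrophage elastase, reached 52 counts in WT VAT replicate 2 and at most 8 in the other libraries. Mmp7 and Mmp24 passed the filter only through the VAT libraries, so their difference between depots is partly set by the filter.

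Per kilobase of exon, so that genes could be compared, Timp2 was the most abundant member in every group. It stood at 610.0 CPM per kb in KO VAT, 704 in WT VAT, 949.5 in KO SAT and 885 in WT SAT. Timp2 inhibits Mmp enzymes and, in complex with Mmp14, also takes part in activating pro-Mmp2. Mmp2, gelatinase A, came next with 201 CPM per kb in KO VAT, 213 in WT VAT, 762 in KO SAT and 756 in WT SAT. In VAT it was followed by the versican-cutting protease Adamts1, with 168 CPM per kb in KO VAT and 190.5 in WT VAT, and in SAT by Mmp3, stromelysin-1, with 290.0 CPM per kb in KO SAT and 335 in WT SAT.

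Summed over the family, Mmp genes were at 434 ± 32.1 CPM per kb in KO VAT, 456 ± 8.29 in WT VAT, 1378 ± 40.2 in KO SAT and 1401 ± 112 in WT SAT (mean ± SD, n = 4 each). Timp genes summed to 693 ± 69.3 CPM per kb in KO VAT, 809 ± 55.6 in WT VAT, 1059 ± 41.8 in KO SAT and 1004 ± 69.2 in WT SAT. The ratio of the Timp sum to the Mmp sum was 1.59 ± 0.12 in KO VAT, 1.78 ± 0.10 in WT VAT, 0.768 ± 0.019 in KO SAT and 0.720 ± 0.077 in WT SAT. Timp transcripts thus exceeded Mmp transcripts per kb in all 8 VAT libraries, the lowest ratio being 1.46. They fell short of Mmp transcripts in all 8 SAT libraries, the highest ratio being 0.788. The ratio rests mainly on few genes. Timp2 averaged 86.9% to 89.6% of the Timp sum over the groups. Mmp2 averaged 46.1% of the Mmp sum in KO VAT, 46.8% in WT VAT, 55.2% in KO SAT and 54.1% in WT SAT. In SAT, Mmp3 averaged a further 21.1% in KO and 23.8% in WT. Adamts genes summed to 517 ± 89.0 CPM per kb in KO VAT, 523 ± 36.2 in WT VAT, 485 ± 3.81 in KO SAT and 456 ± 55.7 in WT SAT, ranges that overlapped between depots. These sums are given as descriptions with no test.

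**Figure D1:**
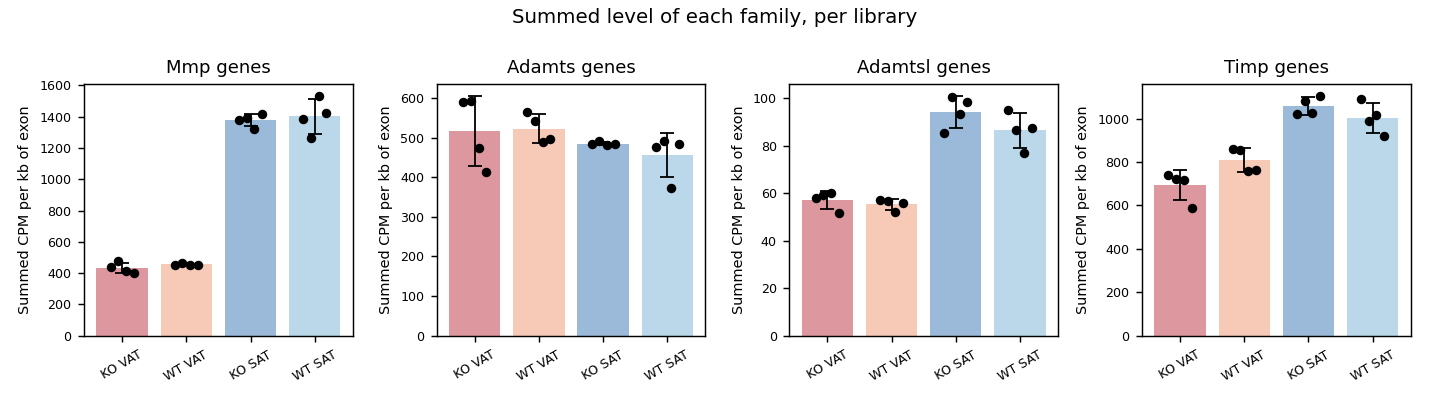
Summed level of the Mmp, Adamts, Adamtsl and Timp genes in CPM per kb of exon, with bars at the mean of each group, error bars at the SD and points for the 4 libraries. The Mmp sum was 434 in KO VAT and 456 in WT VAT against 1378 in KO SAT and 1401 in WT SAT, while the Adamts sums overlapped between depots.

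The depots were compared within each genotype. In KO, 26 of the 40 tested members differed between VAT and SAT at an adjusted p under 0.05 (edgeR quasi-likelihood test, Benjamini-Hochberg adjustment over 16842 genes), 16 higher and 10 lower in VAT, beside 43.3% of all tested genes called, 23.3% higher and 20.0% lower. In WT, 23 differed, 13 higher and 10 lower in VAT, beside 36.7% of all tested genes, 19.1% higher and 17.6% lower. Without the 2 least correlated libraries the counts were 27 in KO and 28 in WT of 41 tested. Over all genes tested then, 47.6% and 40.2% were called. The 2 comparisons share no library, but all 16 libraries were fitted together with 1 shared estimate of the spread. In both genotypes, 13 members were called higher in VAT and 9 lower. A further 4 were called in KO alone, 1 in WT alone and 13 in neither. The matching shares over all tested genes were not counted, so this overlap is a description only. Members called higher in both include Mmp7 and Mmp24, which passed the filter only through VAT. Whether a member called in one genotype alone differed between genotypes was tested as the difference of the KO effects, given below.

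Of the 14 tested Mmp genes, 6 were called higher and 4 lower in VAT in KO, and 4 higher and 5 lower in WT. Over all tested genes, 23.3% were called higher and 20.0% lower in KO, and 19.1% and 17.6% in WT. The median log2 fold change of VAT over SAT of the Mmp genes was 0.15 in KO and 0.06 in WT. The higher calls of each genotype include Mmp7 and Mmp24, whose depot difference is partly set by the filter. The lowest fold changes of VAT over SAT among the members were those of Mmp3 and Mmp27. Mmp3, which cuts proteoglycans, fibronectin and other pro-Mmp enzymes, was at 23.5, 10.8, 18.9 and 7.69 CPM in KO VAT, 15.6, 14.5, 12.8 and 33.0 CPM in WT VAT, 552, 499, 558 and 480.1 CPM in KO SAT, and 482, 517, 739 and 678 CPM in WT SAT. All SAT libraries lay above all VAT libraries in both genotypes. The log2 fold change of VAT over SAT was -5.10 ± 0.36 in KO (SE, edgeR adjusted p = 5.73e-09), or 34.2-fold lower in VAT, and -4.99 ± 0.36 in WT (adjusted p = 7.92e-09), or 31.8-fold lower. Mmp27, a secreted member whose substrates are little studied, was at 6.41, 7.19, 4.49 and 4.20 CPM in KO VAT, 4.34, 5.87, 4.16 and 3.42 CPM in WT VAT, 68.0, 79.7, 68.1 and 79.3 CPM in KO SAT, and 67.4, 64.1, 73.1 and 63.9 CPM in WT SAT. Its groups did not overlap between depots, and it was 13.2-fold lower in VAT in KO (log2 fold change -3.72 ± 0.17, adjusted p = 4.55e-11) and 15.1-fold lower in WT (-3.92 ± 0.17, adjusted p = 2.54e-11).

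Mmp3 and Mmp27 lie in a row of 10 Mmp genes on chromosome 9, from 7272514 to 7699585 (mm10, GENCODE M21), a span of 427 kb. In it, 7 genes were below the filter, namely Mmp1a, Mmp1b, Mmp8, Mmp10, Mmp12, Mmp13 and Mmp20, and 3 were tested. The third tested gene, Mmp7 (matrilysin, known from epithelia), went the other way, with 0.690, 4.40, 1.18 and 4.69 CPM in KO VAT, 1.26, 2.20, 9.90 and 0 CPM in WT VAT, and no count in any of the 8 SAT libraries. Against a floor of 3 counts per SAT library, its mean level was at least 35.2-fold higher in KO VAT and at least 33.3-fold higher in WT VAT. The WT limit rests on WT VAT replicate 3 and was at least 11.5-fold without it, while WT VAT replicate 4 had no count, as in SAT. In KO the limit was 26.9-fold to 44.0-fold on leaving out 1 KO VAT library. The adjusted p was 0.00658 in KO and 0.00707 in WT by edgeR, and 0.0630 in KO and 0.180 in WT by limma-voom, so the call depended on the test. Mesothelial markers had the same depot pattern as Mmp7 (10 of 10 called higher in VAT in each genotype). Of 7 epithelial markers, 4 were tested, and 3 were called higher in VAT in each genotype. The epithelial markers summed to 41.2 to 95.6 CPM in KO VAT and 51.4 to 92.8 CPM in WT VAT. In SAT they summed to 1.92 to 2.72 CPM in KO and 1.83 to 4.11 CPM in WT. Within WT VAT, replicate 4, with no Mmp7 count, held the highest mesothelial and epithelial sums, at 1618 and 92.8 CPM. The part of these markers in the Mmp7 result was not tested.

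The 250 bases before the annotated start of the 3 tested genes of the row and of their neighbour Mmp10 are shown, because these genes of 1 row had opposite depot patterns or, for Mmp10, at most 7 counts. The sequences are RefSeq's for GRCm38.p6, plus strand, from chr9:7445572-7445821 (Mmp3), chr9:7571146-7571395 (Mmp27), chr9:7691840-7692089 (Mmp7) and chr9:7502092-7502341 (Mmp10), read 5′ to 3′, with capitals at matches to TGANTCA (an AP-1 type element) and TATAAA (the TATA box).
Mmp3: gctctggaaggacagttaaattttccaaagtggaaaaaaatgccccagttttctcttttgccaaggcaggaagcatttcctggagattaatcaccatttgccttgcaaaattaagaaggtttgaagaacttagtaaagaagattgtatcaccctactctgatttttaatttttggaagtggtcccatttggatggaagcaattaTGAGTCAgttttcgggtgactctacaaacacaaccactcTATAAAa
Mmp27: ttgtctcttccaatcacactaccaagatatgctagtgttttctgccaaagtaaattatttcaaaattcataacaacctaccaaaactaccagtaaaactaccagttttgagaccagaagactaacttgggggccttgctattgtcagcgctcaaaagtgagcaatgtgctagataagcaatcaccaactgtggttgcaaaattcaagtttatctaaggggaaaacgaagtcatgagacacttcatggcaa
Mmp7: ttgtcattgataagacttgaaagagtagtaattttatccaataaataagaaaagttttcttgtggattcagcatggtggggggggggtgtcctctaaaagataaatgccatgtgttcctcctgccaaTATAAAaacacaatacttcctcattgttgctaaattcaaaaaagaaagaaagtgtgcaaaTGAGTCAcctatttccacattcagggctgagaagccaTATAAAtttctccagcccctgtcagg
Mmp10: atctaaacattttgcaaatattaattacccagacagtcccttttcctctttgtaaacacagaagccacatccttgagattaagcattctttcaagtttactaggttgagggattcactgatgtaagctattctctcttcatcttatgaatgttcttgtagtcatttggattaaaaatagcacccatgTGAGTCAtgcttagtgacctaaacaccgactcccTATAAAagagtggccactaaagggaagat
Mmp3 holds TGAGTCA at positions -46 to -40 from the start and TATAAA at -7 to -2. Mmp7 holds TGAGTCA at -63 to -57 and TATAAA at -123 to -118 and -26 to -21. Mmp10 holds TGAGTCA at -63 to -57 and TATAAA at -29 to -24. The Mmp27 window holds neither set of letters. Of the 51 members, 36 had a window in the RefSeq table, including all 10 genes of the row. TGANTCA, searched on both strands, was found in 8 of the 10 (not in Mmp8 or Mmp27) and in 0 of the other 26 members, beside 6.75% of all 32851 windows of that length. TATAAA was found in 7 of the 10 and 3 of the other 26, beside 12.4% of all windows, and AAAGGTCA, the element that Nr4a proteins are known to bind as monomers, in 0 of 36, beside 1.34% of all windows. The motifs do not overlap one another, and a match is a description of the letters only.

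Mmp2 (chromosome 8, 92827291 to 92853420) and its activator Mmp14 (chromosome 14, 54431612 to 54445364) were also lower in VAT. Mmp2 was at 696, 798, 622 and 595 CPM in KO VAT, 694, 774, 709.9 and 699 CPM in WT VAT, 2576, 2594, 2386 and 2719 CPM in KO SAT, and 2727, 2369, 2530.0 and 2566 CPM in WT SAT. It was 3.79-fold lower in VAT in KO (log2 fold change -1.92 ± 0.09, adjusted p = 7.97e-11) and 3.54-fold lower in WT (-1.82 ± 0.09, adjusted p = 1.31e-10), with no overlap between depots. Mmp14 was at 467, 512, 473 and 454 CPM in KO VAT, 472, 455, 455 and 441 CPM in WT VAT, 919, 983, 881 and 1043 CPM in KO SAT, and 832, 724, 949.6 and 767 CPM in WT SAT. Its log2 fold change was -1.01 ± 0.08 in KO and -0.84 ± 0.08 in WT, again with no overlap between depots (adjusted p = 4.67e-08 and 4.49e-07).

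The membrane-bound Mmp15, Mmp16, Mmp17 and Mmp24 were at lower levels than Mmp14. Per kb of exon, Mmp23 exceeded Mmp14 in VAT, at 96.9 against 79.9 CPM in KO VAT and 102 against 76.4 CPM in WT VAT. In SAT it lay below Mmp14, at 91.1 against 160 CPM per kb in KO SAT and 102 against 137 in WT SAT. The GPI-anchored Mmp17 averaged 24.8 ± 1.67 CPM in KO VAT, 22.2 ± 0.361 CPM in WT VAT, 12.7 ± 2.32 CPM in KO SAT and 12.9 ± 2.93 CPM in WT SAT, with log2 fold changes of 0.97 ± 0.14 in KO and 0.78 ± 0.14 in WT (adjusted p = 1.71e-05 and 0.000203). The transmembrane Mmp16 averaged 2.99 ± 0.477 CPM in KO VAT and 3.11 ± 0.487 CPM in WT VAT against 1.62 ± 0.0897 CPM in KO SAT and 1.96 ± 0.581 CPM in WT SAT. It was called higher in VAT in both genotypes, but in WT not without WT VAT replicate 2 (adjusted p = 0.0505) or when only the WT groups were fitted (0.0524). The transmembrane Mmp15 did not pass the test, at 0.20 ± 0.16 in KO and -0.16 ± 0.16 in WT. Transmembrane Mmp24, which passed the filter through VAT only, stayed under 1 CPM in every library and was called higher in VAT in both genotypes. Its KO call was lost with the replicate block (0.0604), with no filter on low counts (0.0567) and without KO VAT replicate 1, 2 or 4 or any 1 KO SAT library, with adjusted p of 0.0520 to 0.123. Its WT call was lost without WT VAT replicate 4 (0.0521), WT SAT replicate 1 (0.0566) or WT SAT replicate 4 (0.0532). Its exons overlap those of BC029722 on the opposite strand by 637 bases.

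Among the proteases called in one genotype alone, Mmp28 (epilysin) was at 4.44, 7.35, 4.01 and 6.71 CPM in KO VAT, 3.90, 3.03, 3.64 and 3.38 CPM in WT VAT, 10.9, 6.14, 8.92 and 8.19 CPM in KO SAT, and 10.03, 14.2, 6.51 and 15.0 CPM in WT SAT. Its log2 fold change of VAT over SAT was -1.72 ± 0.25 in WT (adjusted p = 3.55e-05) and -0.60 ± 0.24 in KO (0.0568), and the test of the difference gave 1.11 ± 0.35 (0.153). In KO it was called, as lower in VAT, by DESeq2 (0.0391) and when only the KO groups were fitted (0.0407). It was also called without KO VAT replicate 2 (0.0300) or KO SAT replicate 2 (0.0317) and without the 2 least correlated libraries (0.0157). The stromelysin-3 gene Mmp11 was higher in KO VAT than in KO SAT by 0.27 ± 0.09 (adjusted p = 0.0297, 0.00997 to 0.114 over the alternatives). This call was lost without KO VAT replicate 3 (0.0625) or 4 (0.114) or KO SAT replicate 1 (0.0727) or 3 (0.0728). It was also lost without the 2 least correlated libraries (0.0880). The gelatinase B gene Mmp9, at 0.100 to 2.49 CPM over all libraries, was called higher in VAT in KO (1.48 ± 0.57, adjusted p = 0.0446, 0.0106 to 0.139 over the alternatives). That call was lost with no filter on low counts (0.0539) and without the 2 least correlated libraries (0.103). It was also lost without KO VAT replicate 2 (0.0691), 3 (0.0549) or 4 (0.139) or KO SAT replicate 1 (0.104), 3 (0.121) or 4 (0.122). A call in WT appeared without WT SAT replicate 2 (0.0236). Markers of neutrophils, which are known for Mmp9, summed over 10 genes to 0.751, 0.968, 3.81 and 9.92 CPM in KO VAT, 0.889 to 1.15 CPM in WT VAT, 0.0777 to 0.792 CPM in KO SAT and 0.568 to 0.802 CPM in WT SAT. KO VAT replicate 4 was the highest library for both this sum and Mmp9. The markers S100a8 and S100a9 were not highest in it, at 0.0235 and 0.0469 CPM. In the other KO VAT libraries S100a8 was at 0.0812 to 0.198 CPM and S100a9 at 0 to 0.218 CPM. Of the 10 markers 1 passed the filter on low counts and was not called between depots, and Ly6g had no count in any VAT library. The part of these markers in the Mmp9 result was not tested.

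**Figure D2:**
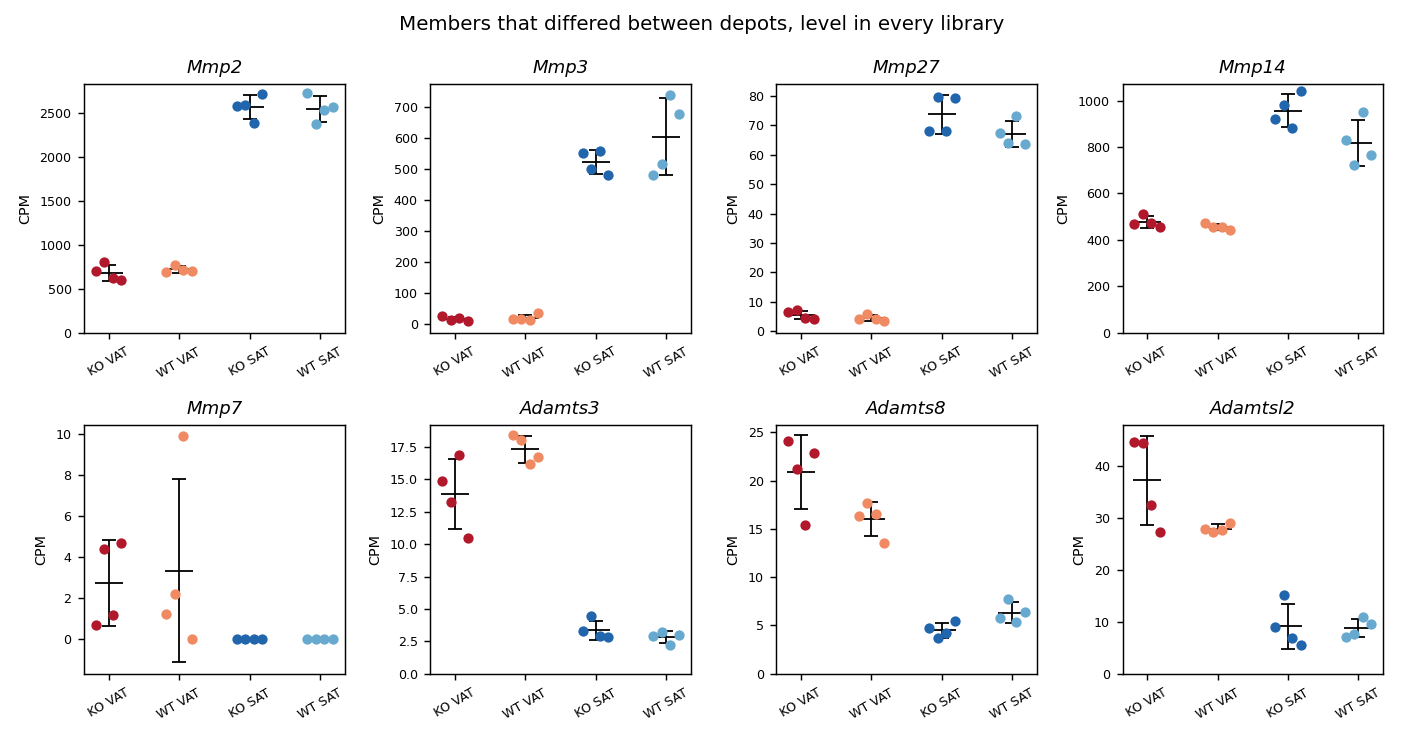
Level in CPM of 8 members that differed between depots, with a point for each of the 4 libraries of a group and a black line and bar for mean and SD. Mmp2, Mmp3, Mmp27 and Mmp14 had every SAT library above every VAT library, and Mmp7 had no count in SAT.

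Of the 17 tested Adamts genes, 8 were called higher and 1 lower in VAT in KO, and 7 higher and 1 lower in WT. Over all tested genes, 23.3% were called higher and 20.0% lower in KO, and 19.1% and 17.6% in WT. The median log2 fold change of VAT over SAT was 0.41 over the Adamts genes in KO and 0.18 in WT, beside 0.02 and -0.0044 over all tested genes. Among the procollagen N-proteinases, which trim the amino end of fibrillar procollagens, Adamts3 differed and its relatives did not pass the test with all libraries. Adamts3 was at 14.9, 13.3, 16.9 and 10.5 CPM in KO VAT, 18.4, 18.02, 16.2 and 16.7 CPM in WT VAT, 3.29, 4.43, 2.94 and 2.80 CPM in KO SAT, and 2.95, 3.22, 2.20 and 2.97 CPM in WT SAT. Without overlap between depots, it was 4.14-fold higher in VAT in KO (log2 fold change 2.05 ± 0.16, adjusted p = 2.2e-08) and 6.08-fold higher in WT (2.6 ± 0.17, 1.99e-09). Adamts2, the major procollagen I N-proteinase, was at far higher levels of 919 ± 123 CPM in KO VAT, 969 ± 97.5 CPM in WT VAT, 971 ± 63.4 CPM in KO SAT and 947 ± 57.4 CPM in WT SAT, with log2 fold changes of -0.08 ± 0.10 in KO and 0.03 ± 0.10 in WT. Adamts14 had differences of 0.18 ± 0.10 in KO and 0.02 ± 0.10 in WT. In KO it was called higher in VAT without the 2 least correlated libraries (0.25, edgeR adjusted p = 0.00224).

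Among the proteoglycan-cutting group, Adamts8 and Adamts15 were higher and Adamts20 lower in VAT in both genotypes. Adamts8 was at 24.1, 21.2, 15.5 and 22.8 CPM in KO VAT, 16.4, 17.7, 16.6 and 13.6 CPM in WT VAT, 4.71, 3.65, 4.21 and 5.42 CPM in KO SAT, and 5.80, 7.79, 5.34 and 6.39 CPM in WT SAT, again with depots apart. Its log2 fold change was 2.21 ± 0.16 in KO and 1.34 ± 0.15 in WT (adjusted p = 6.81e-09 and 2.41e-06). In all, 489 bases of its exons overlap Gm29724 on the opposite strand. Its neighbour Adamts15, 20.1 kb away on chromosome 9, averaged 322 ± 78.5 CPM in KO VAT, 269.7 ± 38.1 CPM in WT VAT, 193 ± 25.9 CPM in KO SAT and 139.8 ± 18.2 CPM in WT SAT, with changes of 0.74 ± 0.15 and 0.95 ± 0.16. Adamts20, best known from mouse coat pigment cells, was at 1.10 to 1.44 CPM in KO VAT, 0.642 to 1.08 CPM in WT VAT, 2.6 to 3.89 CPM in KO SAT and 1.5 to 3.57 CPM in WT SAT, the only Adamts gene called lower in VAT (-1.33 ± 0.25 in KO, -1.45 ± 0.25 in WT). Schwann and neural markers, which summed to 50.2 to 74.1 CPM in KO VAT, 64.7 to 84.0 CPM in WT VAT, 386 to 521 CPM in KO SAT and 434 to 785 CPM in WT SAT, had the same depot direction as Adamts20, with 7 of 9 called lower in KO VAT and 8 of 9 in WT VAT. Their part in the result was not tested. The abundant Adamts1, Adamts4 and Adamts5 did not pass the test in either genotype, with depot differences between -0.17 and 0.25 on the log2 scale. Without WT SAT replicate 3, Adamts5 was called higher in WT VAT (0.31, adjusted p = 0.0196).

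Of the microfibril-linked proteases, Adamts6 was higher in VAT by 1.41 ± 0.29 in KO and 2.13 ± 0.30 in WT, at 2.66 to 4.13 CPM in KO VAT, 2.31 to 4.69 CPM in WT VAT, 0.894 to 1.48 CPM in KO SAT and 0.334 to 1.13 CPM in WT SAT. Adamts10, far more abundant at 179 ± 6.61 CPM in KO VAT, 152 ± 14.2 CPM in WT VAT, 135 ± 16.3 CPM in KO SAT and 121 ± 13.5 CPM in WT SAT, was higher in VAT by 0.41 ± 0.10 in KO and 0.33 ± 0.10 in WT (adjusted p = 0.00218 and 0.0118). Of the proteases that cut cartilage oligomeric matrix protein, Adamts7 was higher in VAT by 1.08 ± 0.13 in KO and 0.80 ± 0.13 in WT, while Adamts12 had differences of -0.58 ± 0.40 and -0.09 ± 0.40. Adamts12 had single low libraries, at 93.6 CPM in KO VAT replicate 4 and 39.8 CPM in WT SAT replicate 3, beside other libraries of these groups at 157 to 250.3 CPM and 216 to 282 CPM. Adamts16 and Adamts17 did not pass the test between depots, except Adamts16 in WT without WT SAT replicate 3 (-0.77, adjusted p = 0.0304).

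Adamtsl genes divided. Adamtsl2, a secreted protein that binds fibrillin and latent TGF-beta binding protein, was at 44.6, 44.4, 32.6 and 27.4 CPM in KO VAT, 27.8, 27.3, 27.7 and 29.1 CPM in WT VAT, 9.03, 15.2, 6.83 and 5.48 CPM in KO SAT, and 7.10, 7.76, 10.9 and 9.55 CPM in WT SAT. The lowest VAT library lay above the highest SAT library, and the log2 fold changes were 2.03 ± 0.24 in KO and 1.67 ± 0.24 in WT (adjusted p = 3.29e-06 and 3.5e-05). Adamtsl4, which binds fibrillin and is known from lens ligament disease in humans, was the most abundant of the family per kb and was lower in VAT, with log2 fold changes of -1.02 ± 0.09 in KO and -0.89 ± 0.09 in WT (adjusted p = 7.21e-08 and 4.64e-07). Adamtsl1 (-0.97 ± 0.10 and -0.77 ± 0.10) and Adamtsl5 (-0.56 ± 0.10 and -0.59 ± 0.10) were also lower in VAT in KO and in WT. Adamtsl3 did not pass the test, at 0.51 ± 0.20 in KO and 0.33 ± 0.20 in WT. In KO it was called higher in VAT by DESeq2 (adjusted p = 0.0349) and with a filter at 1 CPM (0.0453). The same call came when only the KO groups were fitted (0.0273) and without the 2 least correlated libraries (0.00069). It also came without KO VAT replicate 4 (0.0152) or KO SAT replicate 3 (0.0463).

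The inhibitors divided as well. Timp2 was at 2535, 2469, 2465 and 2037 CPM in KO VAT, 2944, 2922, 2577 and 2522 CPM in WT VAT, 3557, 3789, 3567 and 3884 CPM in KO SAT, and 3758, 3316, 3567 and 3151 CPM in WT SAT, lower in every VAT library than in any SAT library. Its log2 fold change was -0.64 ± 0.09 in KO (adjusted p = 1.61e-05) and -0.33 ± 0.09 in WT (0.00705). Timp4, which is abundant in fat and heart, was higher in VAT by 1.19 ± 0.18 in KO and 0.73 ± 0.18 in WT (adjusted p = 4.62e-05 and 0.00394), with KO SAT the lowest of the 4 groups on average. Timp3, the matrix-bound inhibitor, was lower in VAT in KO (log2 fold change -0.72 ± 0.26, adjusted p = 0.0340, 0.000339 to 0.107 over the alternatives), a call lost without KO VAT replicate 3 (0.0689) or 4 (0.107) or KO SAT replicate 1 (0.0589), 3 (0.0776) or 4 (0.0661). In WT its change was -0.19 ± 0.26 (0.618), and -0.45 (0.0248) without WT SAT replicate 3, which stood at 207 CPM beside 593 to 737 CPM in the other WT SAT libraries. Timp3 exons overlap those of Syn3 on the opposite strand by 1733 bases. Timp1 did not pass the test with all libraries, at -0.25 ± 0.16 in KO and -0.32 ± 0.16 in WT. It was called lower in WT VAT without WT SAT replicate 4 (-0.44, adjusted p = 0.0416). Mmp19 (0.46, 0.0248) passed on leaving out that library too, and Mmp23 (0.25, 0.0287) on leaving out WT SAT replicate 3, both as higher in WT VAT.

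**Figure D3:**
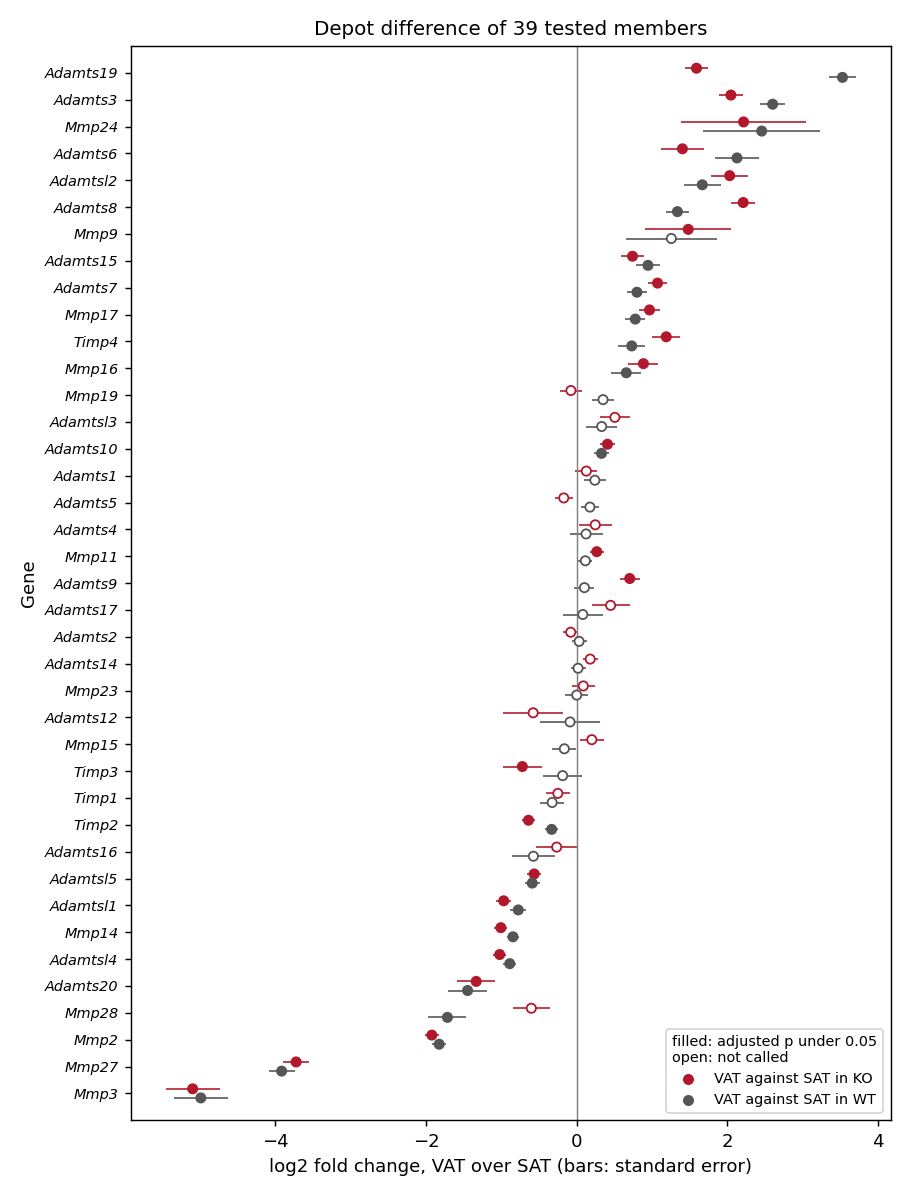
Log2 fold change of VAT over SAT for 39 tested members (Mmp7, with no count in SAT, is left out), in KO (red) and in WT (grey), with bars for the standard error and filled points for an adjusted p under 0.05. Mmp3 at -5.10 in KO and -4.99 in WT and Mmp27 at -3.72 and -3.92 stand far to the left, and the members called in both genotypes had the same sign in both.

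Several cell type lists moved with the depot beside the members. Pericyte and smooth muscle markers summed to 5339 to 6812 CPM in KO VAT, 5721 to 6188 CPM in WT VAT, 2305 to 3199 CPM in KO SAT and 2891 to 4836 CPM in WT SAT, with 9 of 11 called higher in VAT in KO and 8 of 11 in WT. Progenitor and fibroblast markers summed to 68838 to 79589 CPM in KO VAT, 69987 to 78665 CPM in WT VAT, 178898 to 200696 CPM in KO SAT and 164496 to 190100.0 CPM in WT SAT, and were lower in VAT for 11 of 16 genes and higher for 3 of 16 in each genotype. Adipocyte markers, whose levels are given below, were called higher in VAT for 8 of 8 genes in KO, and 0 of 8 were called between depots in WT. The part of these lists in the depot differences of the members was not tested. Exons of further members overlap those of genes on the opposite strand, among them 122 bases of Adamts7 (Tbc1d2b), 466 of Mmp28 (1700020L24Rik), 789 of Mmp19 (Tmem198b) and 123 of Mmp7 (AV064505).

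The genotypes were compared within each depot to see which members depended on Nr4a1. In VAT, 2 of the 40 tested members differed between KO and WT, both Adamts genes and both higher in KO, beside 4.1% of all tested genes called and 2.84% called higher. Without the 2 least correlated libraries, 6 of 41 tested were called, or 14.6%, beside 4.93% of all genes tested then. The 4 that joined were Adamts14 and Adamts16, higher in KO, and Mmp11 and Timp3, lower in KO. In SAT, 3 differed, 1 higher and 2 lower in KO, beside 5.89% of all tested genes, 3.46% higher and 2.43% lower. Without the 2 libraries 5 of 41 were called, or 12.2%, beside 7.43% of all genes. With all libraries the shares of members called, 5.0% in VAT and 7.5% in SAT, were near those of all genes. Without the 2 libraries, an alternative chosen after seeing the data, they were 14.6% and 12.2%, beside 4.93% and 7.43% of all genes. Those shares rest on only 6 members in VAT and 5 in SAT. The genotype and depot comparisons use the same 16 libraries.

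Adamts19, an orphan protease for which no substrate is firmly known, had the largest genotype difference of the tested members. It was at 9.13, 9.54, 14.2 and 12.2 CPM in KO VAT, 10.02, 10.96, 9.92 and 11.7 CPM in WT VAT, 3.96, 3.68, 3.08 and 4.20 CPM in KO SAT, and 0.868, 0.842, 0.734 and 1.20 CPM in WT SAT. The KO SAT libraries thus lay between WT SAT and the VAT groups, and overlapped with neither, while the 2 VAT groups overlapped. In SAT it rose 4.05-fold in KO (edgeR adjusted p = 6.13e-06), and in VAT the log2 fold change was 0.08 ± 0.15 (adjusted p = 0.851). The difference of the KO effects, VAT minus SAT, was -1.94 ± 0.23 (adjusted p = 0.00434), the only member called in that test, beside 0.267% of all tested genes. As a result of the same libraries, VAT exceeded SAT 3.01-fold in KO (1.59 ± 0.16) and 11.6-fold in WT (3.53 ± 0.18). All 17 alternatives kept the SAT call, with log2 fold changes from 1.94 to 2.18.

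In VAT, Adamts9, which cuts versican and aggrecan, was at 47.0, 50.3, 46.0 and 41.5 CPM in KO VAT, 35.8, 26.9, 34.7 and 29.1 CPM in WT VAT, 34.4, 26.1, 31.6 and 21.3 CPM in KO SAT, and 32.3, 32.3, 25.7 and 27.2 CPM in WT SAT. Every KO VAT library lay above every library of the other 3 groups, which overlapped among themselves. Adamts9 rose by 0.55 ± 0.13 in KO VAT (1.46-fold, adjusted p = 0.0263), its SAT difference was -0.05 ± 0.13 (0.846), and the test of the difference between depots gave 0.60 ± 0.19 (0.153). In KO it was higher in VAT than in SAT by 0.71 ± 0.13 (adjusted p = 0.000349), and in WT the depot difference was 0.10 ± 0.13 (0.582). The genotype call in VAT was lost without KO VAT replicate 1 (0.0557), 2 (0.0783) or 3 (0.0523) and without WT VAT replicate 2 (0.0893) or 4 (0.0866), and over all 17 alternatives the adjusted p was 0.00339 to 0.0893. Exons of Adamts9 (chromosome 6, 92772699 to 92943492) overlap those of A730049H05Rik on the opposite strand by 1381 bases.

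Adamts17, a protease linked to fibrillin microfibrils, was at 3.82, 3.98, 4.27 and 5.65 CPM in KO VAT, 2.73, 1.72, 2.36 and 2.35 CPM in WT VAT, 2.45, 2.51, 3.95 and 4.00 CPM in KO SAT, and 2.58, 2.25, 1.002 and 2.74 CPM in WT SAT. The VAT groups did not overlap and the SAT groups did. It rose by 0.95 ± 0.26 in KO VAT (1.93-fold, adjusted p = 0.0465), and in SAT the difference was 0.58 ± 0.26 (0.198). The VAT call was lost on leaving out any 1 of the 8 VAT libraries (adjusted p of 0.0566, 0.0718, 0.0774 and 0.152 without KO VAT replicates 1 to 4, and 0.0721, 0.129, 0.0978 and 0.103 without WT VAT replicates 1 to 4). The replicate block gave 0.0521 and no filter on low counts 0.0652, and over all 17 alternatives the range was 0.00681 to 0.152. Adamts16 was at 42.4, 52.5, 66.6 and 32.6 CPM in KO VAT and 25.0, 34.9, 20.7 and 24.6 CPM in WT VAT. In SAT it was at 47.4, 50.4, 76.9 and 58.3 CPM in KO and 65.7, 37.2, 21.7 and 31.6 CPM in WT. It did not pass in VAT (0.88 ± 0.28, adjusted p = 0.0952) or SAT (0.57 ± 0.28, 0.237). It was called in VAT when only the VAT groups were fitted (0.90, 0.0419) and without the 2 least correlated libraries (1.03, 0.0222). In SAT it was called without WT SAT replicate 1 (0.95, 0.0424).

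Adipocyte markers stood apart in KO VAT as well, at 812 to 1422 CPM summed over 8 genes in KO VAT, 433 to 494 CPM in WT VAT, 380 to 541 CPM in KO SAT and 292 to 471 CPM in WT SAT. In VAT, 5 of the 8 were called higher in KO. Summed endothelial markers (10 genes) stood apart between the VAT groups too, at 173 to 195 CPM in KO VAT and 208 to 230 CPM in WT VAT, with 0 of 10 called. They overlapped in SAT, at 278 to 349 CPM in KO SAT and 249 to 292 CPM in WT SAT. The sums of the other 9 marker lists overlapped between genotypes in both depots. The progenitor marker Pdgfra by itself was lower in KO VAT, at 470.3 to 581.0 CPM against 583.7 to 767.8 CPM in WT VAT. In VAT, 0 of the 16 progenitor and fibroblast markers were called between genotypes. The part of the adipocyte and endothelial markers and of Pdgfra in the Adamts9 and Adamts17 results was not tested.

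In SAT, Mmp11 and Timp4 fell in KO. Mmp11 encodes stromelysin-3, which furin-type proteases activate inside the cell and which is reported to restrain adipocyte formation in mice. It was at 14.7, 16.6, 17.4 and 19.6 CPM in KO VAT, 18.7, 24.6, 19.6 and 21.6 CPM in WT VAT, 13.7, 14.5, 13.7 and 14.9 CPM in KO SAT, and 18.3, 19.4, 20.0 and 20.3 CPM in WT SAT. All KO SAT libraries lay below all WT SAT libraries, whereas in VAT the highest KO library, replicate 4, lay above the lowest WT library. The log2 fold change was -0.46 ± 0.09 in SAT (adjusted p = 0.00822, 0.000339 to 0.0284 over all 17 alternatives) and -0.31 ± 0.09 in VAT (0.0782), where Mmp11 was called without KO VAT replicate 4 (-0.38, 0.0435) and by DESeq2 (-0.31, 0.0357). The exons of Mmp11 (chromosome 10, 75923222 to 75936496) overlap those of Chchd10 on the opposite strand by 155 bases.

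Timp4 was at 64.7, 53.9, 46.5 and 45.03 CPM in KO VAT, 56.2, 60.6, 71.2 and 73.2 CPM in WT VAT, 32.3, 19.5, 20.9 and 19.4 CPM in KO SAT, and 35.3, 51.3, 41.3 and 29.5 CPM in WT SAT. KO SAT replicate 1 overlapped the WT SAT range and the other 3 KO SAT libraries lay below it. Timp4 fell by 0.77 on the log2 scale in SAT (SE 0.18, adjusted p = 0.0194), its VAT difference was -0.31 ± 0.18 (0.393), and the difference of the effects was 0.46 ± 0.26 (0.384). Timp4 no longer passed in SAT without KO SAT replicate 2 (0.0701), 3 (0.0607) or 4 (0.0791), without WT SAT replicate 2 (0.0559) and when only the SAT groups were fitted (0.0709), within a range of 0.00115 to 0.0791 over all 17 alternatives. Timp4 (chromosome 6, 115241892 to 115252205) lies within Syn2 and shares 90 exon bases with it on the opposite strand.

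**Figure D4:**
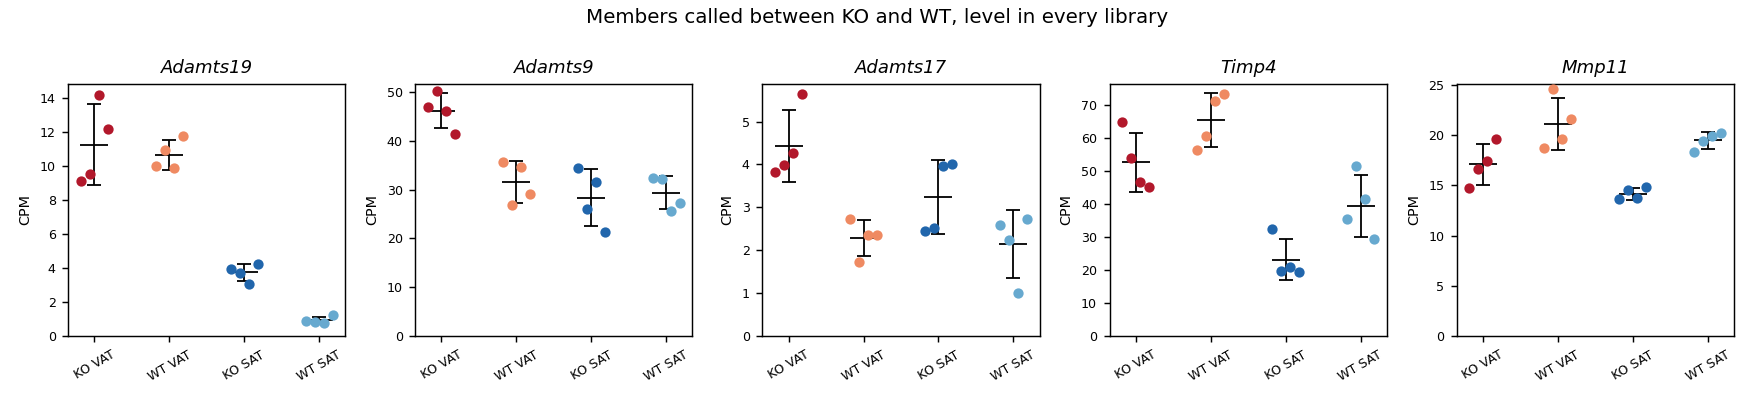
Level in CPM of the 5 members called between KO and WT in either depot, with a point for each of the 4 libraries of a group and a black line and bar for mean and SD. Adamts19 stood at 3.08 to 4.20 CPM in KO SAT against 0.734 to 1.20 CPM in WT SAT, and the other 4 members differed by less.

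The other members did not pass the genotype test with all libraries. Mmp14 and Adamts5 were called higher in KO SAT without WT SAT replicate 3, at 0.30 (adjusted p = 0.0206) and 0.37 (0.0411), and were at 0.23 ± 0.08 (0.124) and 0.23 ± 0.12 (0.252) with it. WT SAT replicate 3 held the highest level of both genes in its group, at 949.6 CPM for Mmp14 and 909.9 CPM for Adamts5. Adamts8 had opposite signs in the depots, at 0.38 ± 0.15 in VAT (adjusted p = 0.179) and -0.49 ± 0.16 in SAT (0.0787, and 0.0342 by DESeq2). The difference of its KO effects was 0.87 ± 0.22 (0.0831), and it was called without KO VAT replicate 3 (0.0282) and by DESeq2 (0.0108). Adamts15 in SAT was at 0.46 ± 0.15 (0.0902) and was called by DESeq2 (0.0404) and with the replicate block (0.0351). The most abundant members differed little by genotype: Mmp2 by -0.09 ± 0.09 in VAT and 0.01 ± 0.09 in SAT, Timp2 by -0.21 ± 0.09 and 0.10 ± 0.09, Adamts1 by -0.18 ± 0.15 and -0.07 ± 0.15, and Mmp3 by -0.32 ± 0.31 and -0.21 ± 0.30, with none past the test. The median log2 fold change of KO over WT was 0.24 in VAT and 0.23 in SAT over the 17 tested Adamts genes, -0.06 and -0.09 over the 14 tested Mmp genes, and -0.0043 and -0.010 over all tested genes. Of the 17 Adamts genes, 7 in VAT and 4 in SAT had an unadjusted p under 0.05, beside 17.4% and 22.5% of all tested genes. The SAT count was thus near the background.

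**Figure D5:**
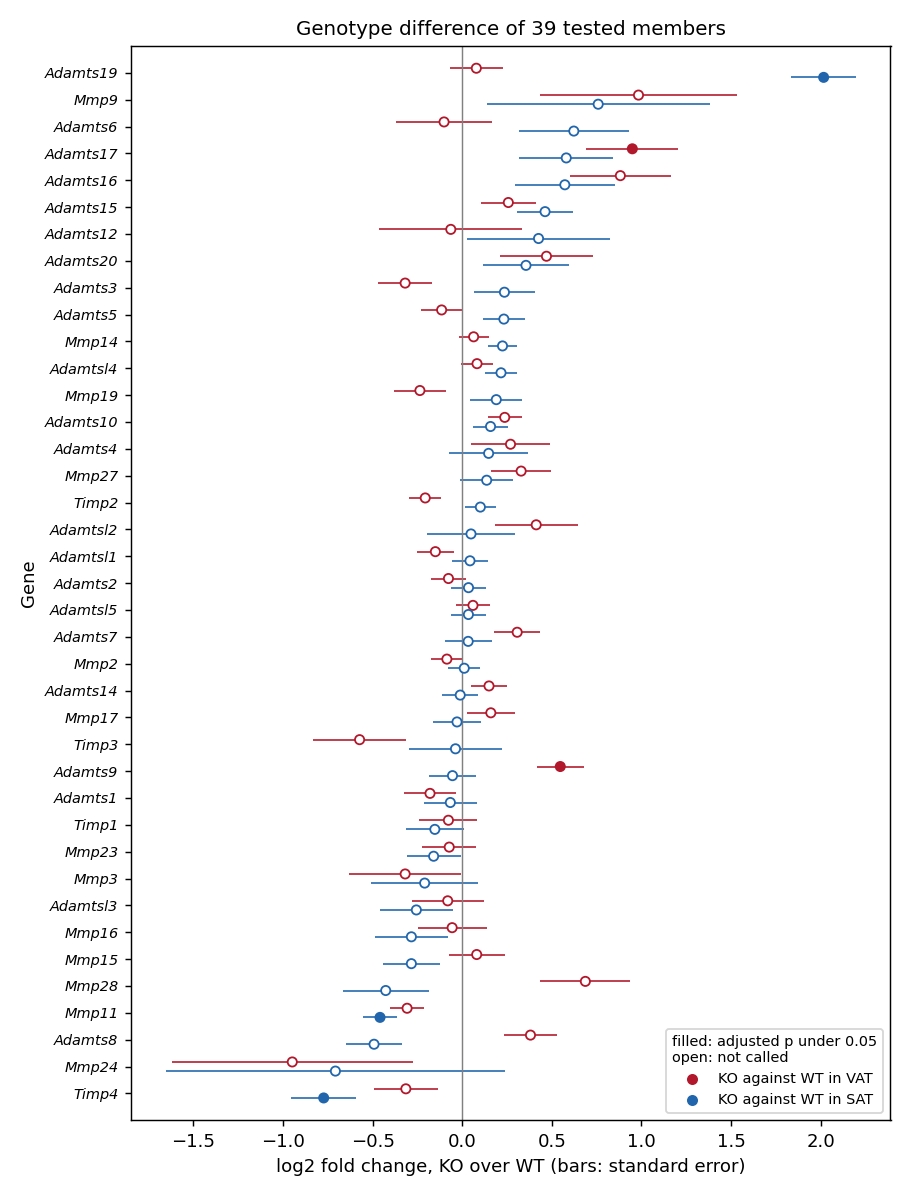
Log2 fold change of KO over WT for 39 tested members (Mmp7 is left out), in VAT (red) and SAT (blue), with bars for the standard error and filled points for an adjusted p under 0.05. Adamts19 in SAT at 2.02 stands alone to the right, and all other points lie within 1 log2 unit of 0.

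Genes that act with these families were counted from lists of 74 substrates, activators, inhibitors and other matrix proteases, of which 69 were tested. In VAT, 2 were called higher and 2 lower in KO, beside 2.84% of all tested genes higher and 1.26% lower. The metalloprotease Adam8 was at 4.10 ± 0.287 CPM in KO VAT and 1.84 ± 0.525 CPM in WT VAT (log2 fold change 1.16 ± 0.20, adjusted p = 0.00261), and the microfibril gene Fbn2 at 38.9 ± 8.65 CPM in KO VAT and 19.8 ± 2.52 CPM in WT VAT (0.97 ± 0.22, 0.0155). The serine protease gene Htra3 (-0.30 ± 0.08, 0.0377) and Pcsk6, a furin-type convertase (-0.60 ± 0.16, 0.0462), were lower in KO VAT. In SAT, 9 were called higher and 4 lower in KO, beside 3.46% of all tested genes higher and 2.43% lower. Fbn2 was higher there too, at 44.1 ± 12.9 CPM in KO SAT and 16.1 ± 4.85 CPM in WT SAT (1.45 ± 0.22, 0.000659). The sheddase Adam17 (0.42 ± 0.08, 0.0043), the tolloid protease Tll1 (0.99 ± 0.23, 0.0153), the IGF-binding-protein protease Pappa2 (1.03 ± 0.23, 0.0131) and the proteoglycan Spock3 (1.12 ± 0.23, 0.00921) were higher in KO SAT. The proteoglycan Spock2 (-0.78 ± 0.14, 0.00294) and the protease inhibitor Serpine2 (-0.51 ± 0.11, 0.0094) were lower in KO SAT.

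The lists were chosen with earlier results known, and 3 of their collagen and proteoglycan genes (Col1a1, Col3a1, Dcn) also stand in the progenitor marker list. Between depots, 18 of the 69 were called higher and 34 lower in VAT in KO, and 16 higher and 29 lower in WT. Over all tested genes 23.3% were higher and 20.0% lower in KO and 19.1% and 17.6% in WT. The counts of higher genes were thus near the background. The fibrillar collagen gene Col1a1, a substrate gene lower in VAT like Mmp2 and Mmp14, was at 13036 ± 461 CPM in KO VAT, 9895 ± 1440.3 CPM in WT VAT, 47316 ± 3587 CPM in KO SAT and 40314 ± 4538 CPM in WT SAT, with log2 fold changes of -1.86 ± 0.11 in KO and -2.03 ± 0.11 in WT. The procollagen C-proteinase Bmp1 (-0.97 ± 0.09 and -0.92 ± 0.09), the collagen-cutting cathepsin Ctsk (-1.21 ± 0.08 and -1.25 ± 0.08), the fibroblast protease Fap (-1.69 ± 0.11 and -1.44 ± 0.11) and heparanase, Hpse (-2.16 ± 0.12 and -1.65 ± 0.12), were lower in VAT in KO and in WT. The mast cell protease genes Tpsb2 (-2.23 ± 0.16 and -1.99 ± 0.16) and Cma1 (-2.23 ± 0.20 and -2.14 ± 0.19) were lower in VAT too. The convertase Pcsk6 was lower in VAT in KO (-1.50 ± 0.16), and averaged 176 CPM in WT VAT and 385 CPM in WT SAT. The convertase Pcsk5 was higher in VAT in WT (0.72 ± 0.09), and averaged 182 CPM in KO VAT and 133 CPM in KO SAT.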

How the data were processed

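RNA-seq was single-read with the NEBNext Ultra RNA kit, per the labels' protocols. The submitters' processing notes name build mm10 and the programs STAR, FastQC, featureCounts and DESeq, without versions; annotation and counting options are not given in the sources used. The authors deposited a table of raw counts per gene symbol, which all tests used. The authors also deposited a table of normalized signal, in which values above 50 counts were the count over a single factor for each library (largest relative deviation 4.94e-10). That table was used for nothing else.

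Counts were filtered by filterByExpr (16842 genes kept) and scaled by TMM, and 1 coefficient per group was fitted to 16 libraries (12 residual degrees of freedom) with edgeR 4.0.16 in R 4.3.3. The quasi-likelihood F test gave p-values, adjusted by Benjamini-Hochberg over every gene kept, with a call at adjusted p under 0.05. A standard error is the absolute log2 fold change over the square root of F. CPM were divided by the length of all GENCODE M21 exons of a gene to compare genes. Steps were tested on simulated counts. DESeq2 1.42.0, limma-voom (limma 3.58.1), other filters and scalings, a replicate block and left-out libraries were alternatives. Figures were drawn with matplotlib 3.10.9. Any member could be named, and from each companion list up to 3 called genes with the smallest p in a comparison. Members and lists were chosen with earlier results of these data known. Total counts limit the precision of members with few reads.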

Additional observations from a re-analysis of the deposited data

Results flagged for a closer look

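Among 158 groups of 4 libraries (tested members with a count), 7 held a library whose gap to the nearest of the others exceeded the 95% critical value of Dixon's test; chance alone gives about 1 in 20 such groups. KO SAT replicate 1 stood above its group for Timp4 (32.3 CPM, the others 19.4 to 20.9) and Adamts14 (64.3 CPM), and KO SAT replicate 2 for Mmp9 (1.19 CPM) and Timp1 (45.3 CPM). WT VAT replicate 4 was above its group for Mmp3 (33.0 CPM) and below it for Adamtsl1 (118 CPM). KO VAT replicate 4 was below its group for Timp2 (2037 CPM).

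The KO effect on Adamts19 differed between depots by the test of the difference itself, at -1.94 on the log2 scale (VAT minus SAT).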

How the results depend on the processing

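No call of a single member reversed: over all alternatives 884 calls were kept and 54 lost. Between KO and WT in VAT, the 2 called members became 1 without a filter on low counts, 1 with the replicate block, 4 when only the VAT groups were fitted (adding Adamts7 and Adamts16), 0 to 2 on leaving out 1 library, and 6 without WT SAT replicate 3 and KO VAT replicate 4, an alternative chosen after seeing the data. At an unadjusted p under 0.05, 11 of 40 members passed with all libraries, beside 17.4% of all tested genes. Between KO and WT in SAT, the 3 became 5 by DESeq2 (adding Adamts15 and Adamts8), 2 to 5 on leaving out 1 library, and 5 without WT SAT replicate 3 and KO VAT replicate 4. For the difference of the KO effects, the 1 became 2 by DESeq2 and 1 to 2 on leaving out 1 library. Depot counts stayed within 1.5 times. Over all genes, DESeq2 called 773 higher and 465 lower in VAT (edgeR 478 and 212), 883 and 808 in SAT (edgeR 582 and 410), and 246 and 281 for the difference (edgeR 22 and 23). Fitting the SAT groups alone called 367 and 142.

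The labels do not say what a replicate number marks. Deviations from the group means correlated between same-numbered libraries by -0.160 to 0.176 over all group pairs. Between WT VAT and WT SAT, replicates 1 to 3 correlated by 0.144, 0.119 and 0.113 and replicate 4 by -0.0414, and 5 of these 8 libraries correlated best with their own number. No group pair had all 4 numbers over 0.1, and the numbers were not treated as pairs. With the replicate block, 1 member was called in VAT, 4 in SAT, 25 between depots in KO, 23 in WT and 1 for the difference. Levels under 1 CPM rest on few reads, as for Mmp24 in every library and Mmp9 in WT SAT. Adamts19 in WT SAT rests on 38, 33, 22 and 51 counts in replicates 1 to 4.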
